A study of Mus musculus with 15 samples.

Results

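A20 parental cells are a B-cell lymphoma line from the BALB/c mouse strain, and their transcriptome without any Foxp1 editing is described here from the 3 libraries titled A20 parental, of 15 libraries in all. The cells were grown under standard culture conditions, carried a wild-type genotype and were harvested for each library at a different passage, so the spread between libraries is one between passages of 1 line and not between animals. The other 12 libraries came from Foxp1 CRISPR clones E6.1 and E6.2, edited in exon 6, and E7.1 and E7.2, edited in exon 7, each of which was grown from a single sorted A20 cell and sequenced in 3 libraries. The mRNA of each sample was sequenced, and the parental libraries held 32308691, 35759660 and 34464693 counted read pairs. The level of a gene is given in TPM, a measure of transcript abundance, that is, its counts divided by its length and scaled so that the sum over all genes is the same in every library. A gene was called expressed at 1 TPM or more in all 3 parental libraries, while a gene at 3 counts or fewer in each of them was at the smallest level this depth can show, which covers counting error only.

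Mature B cells carry a B-cell receptor made of immunoglobulin heavy and light chains with the signalling subunits Cd79a and Cd79b, and present peptides to T cells on MHC-II. After contact with antigen they can enter a germinal center, where Bcl6 holds the program in place and the immunoglobulin genes are mutated and switched, and they can leave it as plasma cells, in which Prdm1 shuts down much of the B-cell program and immunoglobulin is secreted. B-cell lymphomas usually keep features of the stage from which they arose.

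The promoters of 2 genes are shown first because the MHC-II genes were among the highest in these cells and have a known common promoter design, in which a Y box, bound by the factor NF-Y, lies close to the transcription start. The sequences are from RefSeq on GRCm38.p6, run 5′ to 3′ on the gene's own strand from 250 bases before to 50 bases after the start, and show the Y box letters CTGATTGG in capitals. That of H2-Aa, which encodes the alpha chain of I-A, is on the minus strand at chr17:34287774-34288073, and that of H2-Eb1, which encodes the beta chain of I-E, is on the plus strand at chr17:34305617-34305916.
H2-Aa: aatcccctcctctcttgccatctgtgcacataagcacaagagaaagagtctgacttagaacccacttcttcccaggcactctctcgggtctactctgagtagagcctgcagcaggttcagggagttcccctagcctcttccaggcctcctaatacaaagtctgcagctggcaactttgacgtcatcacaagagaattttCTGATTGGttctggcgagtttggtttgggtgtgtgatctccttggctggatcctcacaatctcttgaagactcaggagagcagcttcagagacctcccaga
H2-Eb1: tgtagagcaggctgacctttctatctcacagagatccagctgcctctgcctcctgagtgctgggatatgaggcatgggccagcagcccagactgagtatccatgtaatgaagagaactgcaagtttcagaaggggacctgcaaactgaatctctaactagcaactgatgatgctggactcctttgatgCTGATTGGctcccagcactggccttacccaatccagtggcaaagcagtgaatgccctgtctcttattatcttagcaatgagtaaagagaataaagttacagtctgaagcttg
The letters began 51 bases before the start in H2-Aa and 62 bases before it in H2-Eb1. Searched on both strands, they were present in 4 of the 15 promoters given for 13 genes of the MHC-II list (26.7%). These were the promoters of H2-Aa, H2-Eb1, H2-Eb2 and H2-Oa. The list also holds genes other than those of MHC-II chains. Only exact matches to the letters were counted. No promoter was listed for H2-Ab1, Cd74 or Ciita, so the letters were not sought in them. In the MHC-I list they were present in 8 of 19 promoters of 17 genes (42.1%). Of all 32851 promoters 4.10% held them, and of the promoters of genes expressed in parental cells 6.12%.

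The 4 B-lineage markers used to check the label were all expressed. Cd79b (ENSMUSG00000040592, chromosome 11, 106311341 to 106314762 of GRCm38) was at 391, 468 and 471 TPM in replicates 1 to 3, and Ms4a1, which encodes the surface protein CD20 (ENSMUSG00000024673, chromosome 19, 11249675 to 11266241), at 275, 249 and 287 TPM. Cd79a (ENSMUSG00000003379, chromosome 7, 24897381 to 24902197) was at 175, 138 and 140.4 TPM. Pax5, the factor that commits cells to the B lineage (ENSMUSG00000014030, chromosome 4, 44524757 to 44710487), was lower at 31.4, 35.4 and 23.5 TPM. Their means ranked 297, 531, 1071 and 4762 among 41388 genes, and no library stood more than 1.51-fold from another in any of the 4.

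The markers of other cell types were mostly at or near the floor. Of 23 T and NK cell markers 1 was expressed and 15 were at 3 counts or fewer in each library, and the whole list summed to between 4.71 and 6.03 TPM, while the 4 B-lineage markers summed to between 872 and 922 TPM. Cd3e, Trac, Trbc1 and Trbc2, which encode chains of the T-cell receptor complex, had 0 counts. The myeloid list summed to between 31.9 and 61.2 TPM, with 3 of 21 genes expressed, 7 low and 11 at 3 counts or fewer in each library. Of these 11 genes 7 had 0 counts, among them Lyz2, Cd14, S100a8 and S100a9. Of 12 erythroid and platelet markers 1 was expressed, as was 1 of 20 stromal and epithelial markers, which summed to between 2.47 and 4.35 TPM. The genes that passed 1 TPM were Lck at 1.04, 1.21 and 1.31 TPM, Epor at 1.28, 1.11 and 1.45 TPM and Epcam at 3.33, 1.31 and 1.71 TPM, and in the myeloid list Flt3, a receptor tyrosine kinase of progenitors, at 30.1, 20.98 and 19.2 TPM. The other myeloid genes were Cd68, a lysosomal protein, at 23.02, 11.3 and 9.32 TPM and Adgre1, which encodes F4/80, at 6.01, 1.31 and 1.74 TPM, highest in replicate 1. In such bulk samples few cells with much RNA of a gene and many cells with little cannot be told apart.

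In all, 11573 of 41388 genes (28.0%) were expressed, among them 9721 of 21397 protein-coding genes (45.4%). Another 25040 genes were at 3 counts or fewer in every parental library, 19776 of them at 0 in each, and 4792 lay between. At 10 TPM or more in all 3 libraries there were 7538 genes, at 100 TPM or more 1421 and at 1000 TPM or more 101. The 25 highest genes by mean TPM held between 17.7% and 21.2% of the TPM of a library, and the 100 highest between 32.8% and 37.0%. Translation and the mitochondrion filled the top of the list. Eef1a1, the elongation factor that brings transfer RNA to the ribosome, was highest at 14667, 15012 and 16577 TPM, followed by mt-Co1, a subunit of cytochrome oxidase, at 13436, 11241 and 16403 TPM. Of the 100 highest genes 41 encoded ribosomal proteins, 20 were annotated as pseudogenes and 5 were shorter than 200 bases, for which TPM is least reliable. Among the 25 highest, Igkc at rank 22 was the B-cell gene.

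**Figure D1:**
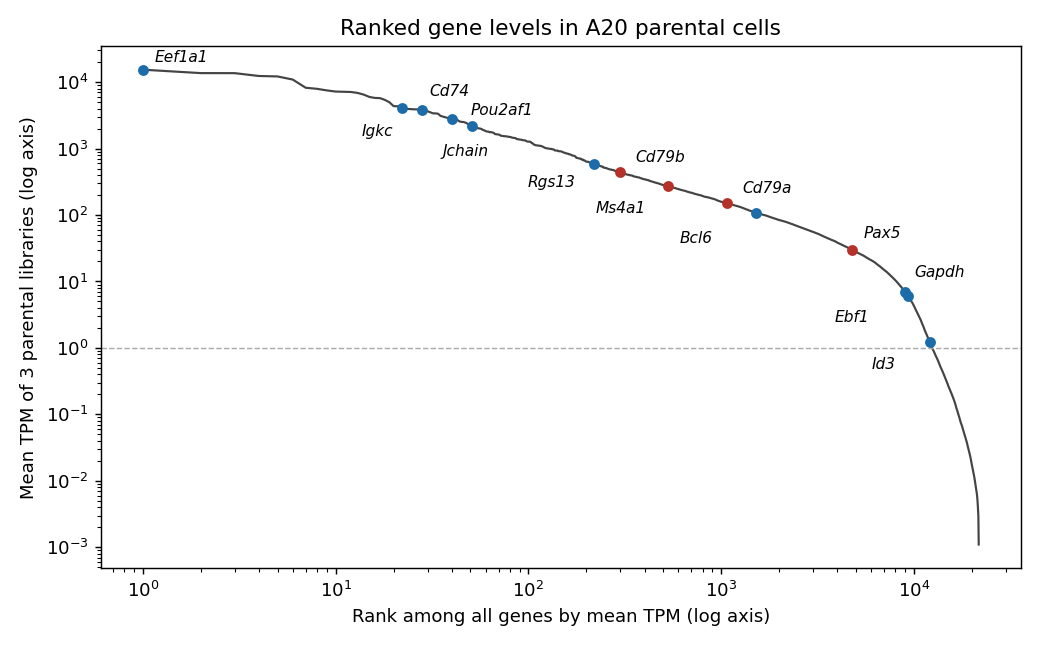
Every gene above 0 is placed by its rank in mean TPM over the 3 parental libraries (x axis, log) and its mean TPM (y axis, log). The 4 B-lineage markers are in red and other genes in blue, and the dashed line is at 1 TPM. Igkc, Cd74, Pou2af1 and Jchain lie within the 51 highest genes, while Pax5 at rank 4762 and Ebf1 at rank 9244 lie far below.

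These levels are counts per length, and the length counts. Taking the longest GENCODE transcript in place of the length in the deposited tables moved the mean of 67 list members expressed above 1 TPM on average by over 1.5-fold. Pax5 fell from 30.1 to 8.502 TPM, Igkc from 4110.0 to 2289 TPM and H2-Aa from 976 to 520.5 TPM, while Ms4a1 rose from 271 to 499.6 TPM, Foxp1 from 24.9 to 45.3 TPM and Bcl6 from 108 to 169 TPM. The order of 2 genes of similar level is therefore not fixed by these data. Genes with near-identical copies were counted only by reads that map once. Gapdh, which has many pseudogene copies, was at 10.3, 4.67 and 5.98 TPM, and Actb, the cytoskeletal actin, at 884, 399.6 and 333 TPM.

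Parental replicate 1 stood apart from the other 2. Loci of ribosomal RNA (Gm42418, mt-Rnr1 and mt-Rnr2) took 3.72% of its counts, against 0.293% and 0.338% in replicates 2 and 3 and a range of 0.148% to 14.1% in the 12 clone libraries. A run of neighbouring mitochondrial genes was low in it. The ATP synthase subunit mt-Atp6 held 664 counts in replicate 1 and 164095 and 229786 in the others, and mt-Atp8, mt-Co2 and mt-Co3 held only 184, 461 and 565 counts in it, while mt-Co1 was not low. Among the clone libraries, E6.1 replicate 1 with 154 counts and E6.2 replicate 3 with 366 counts had a low mt-Atp6 as well. Across the 11573 expressed genes, which are not independent, Spearman's rho was 0.969 between replicates 1 and 2, 0.967 between 1 and 3 and 0.987 between 2 and 3. Replicate 1 was over 1.5-fold above both others in 606 genes and below both in 515, among 10664 genes whose other 2 values agreed within 1.5-fold. For replicate 2 these counts were 120 and 75, and for replicate 3 they were 44 and 276.

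**Figure D2:**
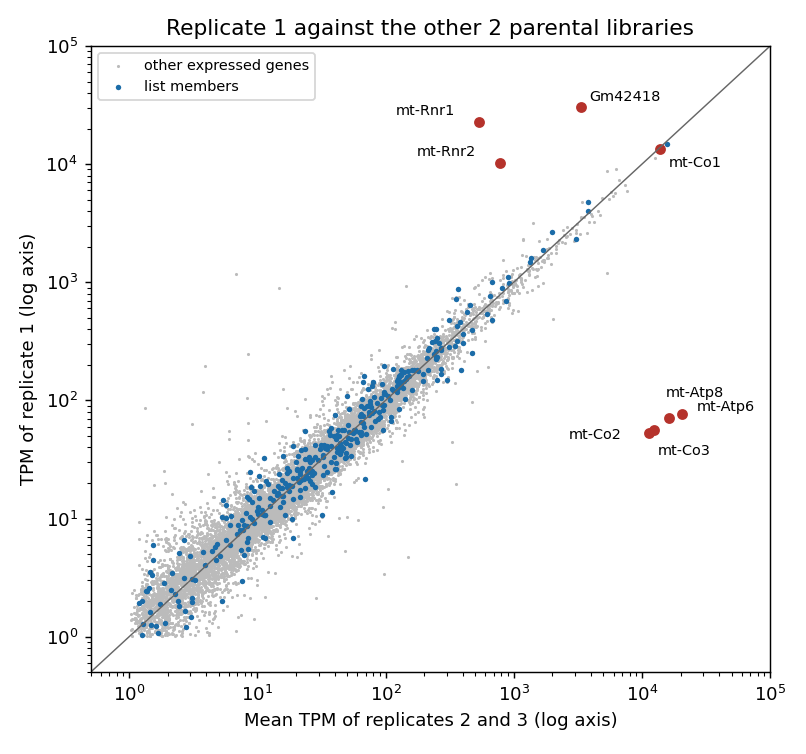
TPM of parental replicate 1 (y axis, log) against the mean of replicates 2 and 3 (x axis, log) for the 11573 expressed genes, with list members in blue and ribosomal RNA loci and mitochondrial genes in red. The 3 ribosomal RNA loci lie above the line of equality and mt-Atp6, mt-Atp8, mt-Co2 and mt-Co3 far below it, while mt-Co1 and most list members lie near it.

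Because of this library, means are also given without it where that matters. Of the 8101 genes at a mean of 10 TPM or more, the median ratio of the highest to the lowest library was 1.29, and 445 genes differed by over 2-fold. The 10 genes with the largest ratio were the mitochondrial genes mt-Atp6, mt-Atp8, mt-Co2 and mt-Co3, the pseudogenes Gm15516, Rpl35a-ps6 and Rpl15-ps3, and the short RNAs Gm25360, Rmrp and Rnu3a. Gm15516 was at 0.404, 469 and 1.08 TPM, high in replicate 2 alone, and Rpl15-ps3 at 1175, 7.05 and 6.58 TPM, high in replicate 1 alone. None of the 10 belonged to the 30 lists of B-cell, immune and lymphoma genes on which the rest of the description rests. Of 608 symbols in those lists 601 were matched, and 350 were expressed, 96 were low and 155 were at 3 counts or fewer in each library. The median of their mean TPM was 7.06, against 0.00974 over all genes. The lists were drawn up for B cells and the immune system, and nothing is read from that difference.

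Of the immunoglobulin constant genes matched, that of the kappa light chain was highest. Igkc, the kappa constant gene (ENSMUSG00000076609, chromosome 6, 70726435 to 70726966), was at 4759.8, 3715 and 3855 TPM. Iglc2, a lambda constant gene, was at 56.6, 53.4 and 63.1 TPM, and Igkc made up 98.8%, 98.6% and 98.4% of the summed TPM of Igkc and Iglc2. The lambda constant genes Iglc1, Iglc3 and Iglc4 were not matched, so this is not the kappa share of all light chains. Of the heavy chains, Ighm was at 688, 939 and 807 TPM and Ighg2c at 1001, 728 and 616 TPM. Their order turned between libraries, with Ighg2c at 48.1%, 33.8% and 32.7% of the heavy-chain constant TPM and Ighm at 33.1%, 43.6% and 42.8%. Ighg2c was thus the highest heavy chain in replicate 1 and Ighm in the other 2. In the C57BL/6 reference genome Ighg2c stands where BALB/c mice carry Ighg2a, which was not analysed here, so counts on Ighg2c can come from that gene. Ighg3 was at 306, 403 and 398 TPM and Ighg2b at 62.3, 57.7 and 44.1 TPM. Ighe at 10.7, 13.5 and 9.59 TPM and Ighg1 at 12.5, 11.5 and 8.88 TPM lay near 10 TPM, and Igha at 0.8298, 2.93 and 1.28 TPM was not expressed by the rule. The heavy constant genes are close copies of each other, and reads that map to several were not counted, so the split between them is uncertain. The split also depends on the lengths used. With the longest GENCODE transcript as length, the mean of Ighg3 fell from 369 to 139 TPM and that of Ighg2b from 54.7 to 19.7 TPM. Ighd was not matched and is in none of these shares. Jchain, which links IgM and IgA chains into polymers, was at 2687, 2044 and 1942 TPM.

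Few counts fell on annotated heavy-chain V segments. Over 108 heavy V segments the libraries held between 28 and 44 counts in sum, while the 7 heavy constant genes held between 33707 and 38319. Ighv8-13 was highest with 11, 15 and 5 counts, and Ighv1-64 followed with 7, 10 and 14. These segments are those of a reference genome from another mouse strain than BALB/c. Pairs that mapped to several places or to several genes were left out. The low sums therefore do not show that heavy V transcripts were rare, nor which heavy V segment the line uses. Neither was tested. Over 103 kappa V segments the sum lay between 652 and 3770 counts, and over 3 lambda V segments between 1739 and 2090. The kappa J segments Igkj3, Igkj4 and Igkj5 held 738, 876 and 687 counts, 571, 593 and 449 counts, and 827, 1127 and 660 counts, while Igkj1 and Igkj2 held at most 2. Among heavy J segments Ighj4 held 216, 194 and 220 counts and the other 3 held at most 3. J segments are very short, so their TPM is not used.

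The kappa V segment Igkv1-110 was uneven between libraries. Its counts were 203, 133 and 3231 in the parental libraries, or 44.1, 26.8 and 628 TPM, so that replicate 3 stood 23.5-fold above replicate 2. Igkv14-111 was even at 163, 105 and 105 TPM. The same unevenness was seen in the clones, where Igkv1-110 ranged from 17 counts in E6.1 replicate 2 to 3394 in E7.1 replicate 2, and replicates of 1 clone differed. The related segment Igkv1-117 held 4, 3 and 4 counts in the parental libraries and at most 7 in 10 clone libraries, but 1926 in E6.1 replicate 2 and 969 in E7.1 replicate 1. Those libraries were the 2 with the fewest Igkv1-110 counts, 17 and 32. Low Igkv1-110 did not always go with high Igkv1-117, since parental replicates 1 and 2 and E6.1 replicate 1, with 203, 133 and 235 counts on the former, held 4, 3 and 1 on the latter. The 2 segments are shown because both were uneven between replicates of 1 line. Both lie on the plus strand of chromosome 6 of GRCm38, Igkv1-110 from 68270485 to 68271267 and Igkv1-117 from 68121046 to 68121827. Their GENCODE transcripts of 401 and 404 bases were 96.8% identical, differing at 13 positions of the alignment, of which 3 were gaps. Bases 145 to 234 of the transcripts hold 5 of the differences, in capitals.
Igkv1-110: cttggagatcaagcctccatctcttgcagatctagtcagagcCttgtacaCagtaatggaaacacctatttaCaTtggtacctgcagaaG
Igkv1-117: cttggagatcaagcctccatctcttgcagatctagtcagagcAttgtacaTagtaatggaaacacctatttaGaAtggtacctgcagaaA
The source of this unevenness was not tested.

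Of the lambda V segments, Iglv2 was called lower in all 4 clones. Iglv3 was at 192, 206 and 252 TPM, Iglv2 at 149.7, 126 and 133 TPM and Iglv1 at 37.3, 20.6 and 20.5 TPM in the parental libraries. Iglv2 held 668, 606 and 662 counts there and between 2 and 19 in each of the 12 clone libraries, with no overlap. In the quasi-likelihood test of edgeR its p values, adjusted by the Benjamini-Hochberg method, were 0.000106 for E6.1, 0.000124 for E6.2, 6.88e-05 for E7.1 and 0.000417 for E7.2, and the log2 fold changes were -6.59, -5.83, -7.14 and -5.86 in that order. All 4 calls held in each of 11 alternatives. Iglv2 has close relatives, so its counts are uncertain. Its neighbour Iglv3 was present in all 15 libraries, with 903 to 1325 counts in parental cells and 569 to 1496 in the clones. Among the clones it was called only in E7.1, lower (log2 fold change -0.76, adjusted p = 0.041), a call lost in 6 of 11 alternatives, among them the removal of parental replicate 2 or 3 or of any 1 E7.1 library. Iglv1 was called in 0 clones, with adjusted p values of 0.185 or more and an unadjusted p of 0.00276 in E7.2.

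**Figure D3:**
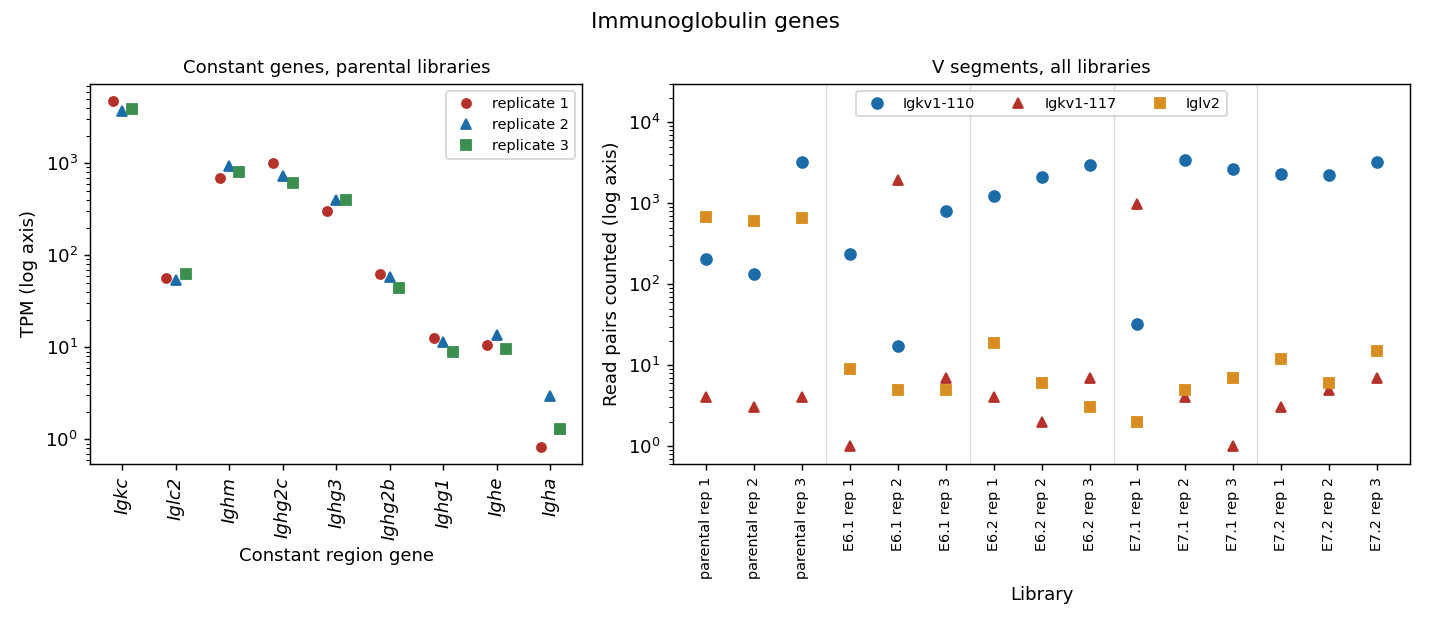
Left, TPM (y axis, log) of the 9 matched constant genes in each parental library. Right, read pairs counted (y axis, log) on Igkv1-110, Igkv1-117 and Iglv2 in each of the 15 libraries. Igkc is highest on the left, and on the right Iglv2 is at 606 counts or more in the 3 parental libraries and at 19 or fewer in the others, while Igkv1-110 and Igkv1-117 differ between replicates of 1 line.

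Among transcription factors, 26 of 38 listed were expressed. Pou2af1, the B-cell coactivator that binds to octamer factors, was far above the rest at 2332, 3188 and 2912 TPM, rank 40 of all genes. Mef2c, a factor of B-cell proliferation downstream of the receptor, followed at 305, 287 and 234 TPM and the lymphoid factor Ikzf1 at 229, 234 and 186 TPM. Spib, an Ets factor of mature B cells, was at 164, 136 and 121 TPM. Ikzf3, Foxo1, Tcf4, Tcf3 and Ets1 had means between 64.5 and 117 TPM. Foxp1, the gene edited in the clones, was at 18.5, 31.4 and 24.7 TPM, lowest in replicate 1. Ebf1, which with Pax5 sets up the B-cell program, was at 5.996, 6.41 and 5.91 TPM and so near the lower end of the expressed genes, with a ratio of 1.08 between the highest and the lowest library. Bach2, which holds back plasma cell differentiation, was at 10.8, 35.7 and 27.9 TPM, and Pou2f2, an octamer factor, at 24.7, 10.01 and 7.54 TPM. Both stood apart in replicate 1, in which Bach2 was low and Pou2f2 high. Factors of other lineages at 3 counts or fewer included Cebpa, Gata2, Tbx21 and Ikzf2 at 0 counts and Tcf7 at 1 count in sum. Gata1, Gata3 and Foxp3 were each under 0.2 TPM.

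The germinal center list was expressed nearly throughout, with 15 of 17 genes. Rgs13, a regulator of chemokine receptor signalling in germinal center B cells, was highest at 539, 586 and 661 TPM, and Gcsam, a germinal center signalling protein, was at 267, 232 and 199 TPM. The repressor Bcl6 was at 137, 105 and 83.1 TPM and Mybl1 at 143, 97.4 and 62.8 TPM, both highest in replicate 1. S1pr2 and Gna13, a receptor and its G protein that confine B cells to the germinal center, were at 39.3, 57.6 and 36.1 TPM and 152, 158 and 131 TPM. Efnb1 was under 1 TPM in each library and Mme, which encodes CD10, had 0 counts.

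Of the plasma cell list 13 of 16 genes were expressed, unevenly. Besides Jchain, Mzb1, a chaperone of immunoglobulin in the endoplasmic reticulum, was at 986, 904 and 925 TPM, and Xbp1, the factor that enlarges the secretory pathway, at 160.3, 142 and 163 TPM. Irf4, which acts in both activated B cells and plasma cells, was at 26.7, 21.5 and 23.5 TPM. The regulator Prdm1 was at 6.06, 4.63 and 5.08 TPM and Sdc1, the plasma cell surface protein CD138, at 3.502, 1.84 and 1.08 TPM. Tnfrsf17, which encodes the plasma cell receptor BCMA, held 3, 1 and 0 counts. High Jchain and Mzb1 thus stood beside low Prdm1, Sdc1 and Tnfrsf17 in the same libraries.

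Genes of early B-cell stages were mostly absent. Of 14 listed 4 were expressed and 9 were at 3 counts or fewer. The interleukin 7 receptor Il7r, the surrogate light chain genes Igll1 and Vpreb2, Kit and Cd93 had 0 counts, and Dntt, which adds bases at V(D)J joints, had 1 count in sum. The recombinase subunit Rag1 was under 1 TPM at 0.106, 0.175 and 0.253 TPM and Rag2 at 1.62, 1.22 and 1.67 TPM. Those expressed were Blnk, the adaptor of the B-cell receptor, at 67.3, 112 and 108 TPM, Flt3 as given above, Vpreb3 at 4.81, 2.44 and 3.57 TPM and Rag2. Of 17 genes that mark mature B subsets 6 were expressed. They included Cr2, the complement receptor CD21, at 23.9, 23.02 and 20.1 TPM, Notch2, which marginal zone B cells require, at 9.72, 9.004 and 6.21 TPM, and Zbtb32, a factor of memory B cells, at 41.4, 20.6 and 17.4 TPM. Cd1d1, S1pr3 and Tbx21 had 0 counts, and Fcer2a, the low-affinity IgE receptor CD23, was at 1.04, 0.612 and 0.498 TPM.

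**Figure D4:**
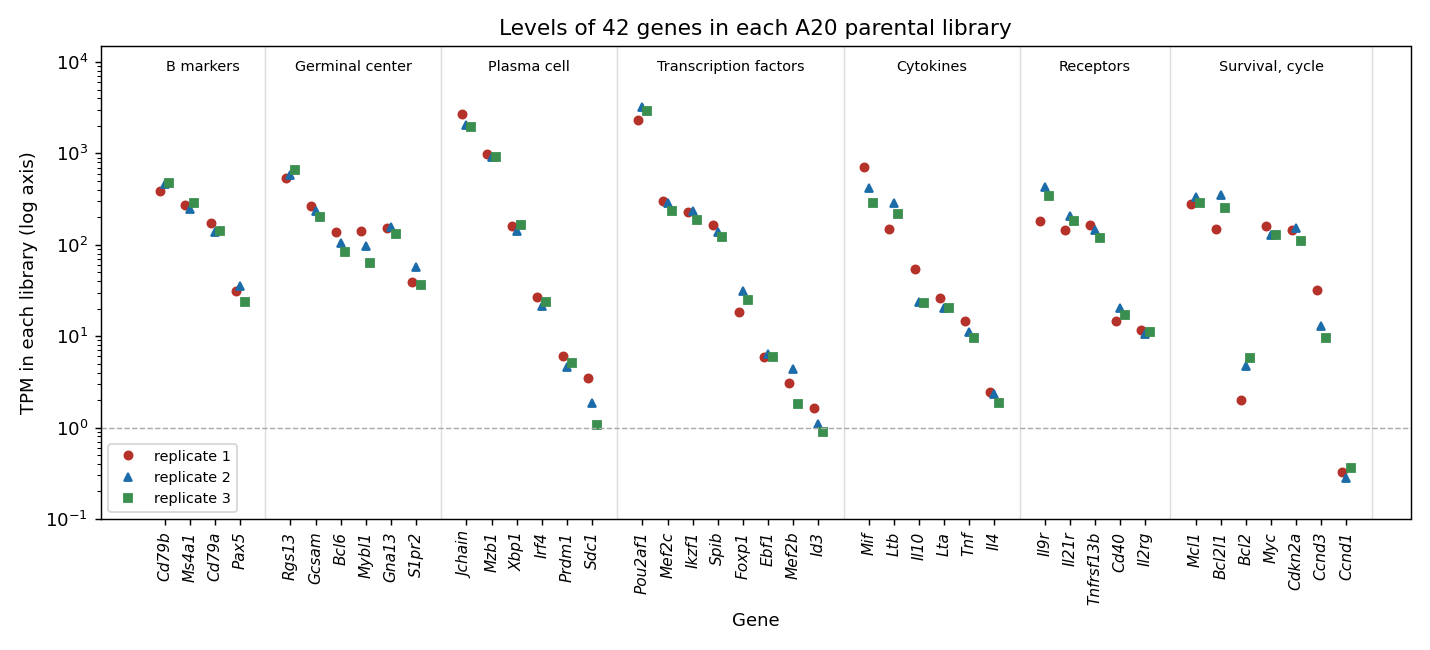
TPM in each of the 3 parental libraries (y axis, log) for 42 genes in 7 groups, with the dashed line at 1 TPM. Within the plasma cell group Jchain and Mzb1 lie near or above 1000 TPM and Sdc1 near 1 TPM, and Bcl2 lies below Mcl1 and Bcl2l1 in each library.

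The apparatus of the B-cell receptor was complete in the list used, with 31 of 31 genes expressed and a median of 43.3 TPM. The kinase Prkcb, which links the receptor to NF-kB, was highest at 479.8, 714 and 647 TPM. Of the proximal kinases, Lyn was at 43.3, 51.9 and 46.4 TPM, Blk at 54.3, 68.6 and 56.1 TPM, Btk at 97.9, 77.1 and 72.9 TPM and Syk at 15.7, 16.6 and 15.04 TPM. Fyn was above all of these at 184, 261 and 281 TPM. Bcl10 and Malt1, which act together in the activation of NF-kB, were at 106 ± 11.1 and 41.7 ± 8.77 TPM (SD, n = 3). Among inhibitory receptors Cd22 was at 47.1, 44.7 and 38.1 TPM, Siglecg at 19.7, 13.7 and 10.5 TPM, Cd72 at 13.1, 5.21 and 6.13 TPM and Fcgr2b, the inhibitory IgG receptor, at 10.6, 6.998 and 5.42 TPM, the lowest of the list. All 22 listed NF-kB genes were expressed too, led by Nfkb2 at 247 ± 38.97 TPM and Birc3 at 203 ± 20.8 TPM, with the kinase Map3k14 lowest at 1.49 ± 0.298 TPM.

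On the surface, 27 of 46 listed markers were expressed. After Cd74, which also serves MHC-II, the highest were Ly6e at 689.8 ± 62.1 TPM and Cd24a at 369 ± 94.5 TPM (SD, n = 3), followed by Cd52, Ms4a1 and Ly86. The pan-leukocyte phosphatase Ptprc was at 105, 103 and 81.9 TPM, and Cd37, Cd53, Cd48, Cd200, Slamf6 and Ly9 had means between 80.9 and 179 TPM. Several well-known B-cell surface genes were low. Cd38 was at 0.104, 0.0958 and 0.0463 TPM, Cd44 at 0.288, 0.0746 and 0.123 TPM, Cd5 at 0.113, 0.209 and 0 TPM and Cd27 at 0.871, 0.589 and 0.0599 TPM. Cd70 and Mme had 0 counts. Of 14 Fc receptor genes 4 were expressed, Fcgr2b among them. Fcrl1 was at 117, 129 and 116 TPM, Fcmr, the receptor of IgM, at 109, 111 and 99.01 TPM and Fcrla at 82.8, 101 and 90.7 TPM, while the activating IgG receptors Fcgr1, Fcgr3 and Fcgr4 were under 1 TPM in each library.

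For antigen presentation, all 18 genes of the MHC-II list were expressed, summing to between 7851 and 8907 TPM. Besides genes of MHC-II chains the list holds Cd74, Ciita, Rfx5, Rfxap, Rfxank, Ctss, Ifi30 and Lgmn. Cd74, the invariant chain, made up the largest share at 3997, 3789 and 3822 TPM. Of the classical chains, H2-Aa was at 1112, 905 and 910.1 TPM, H2-Ab1 at 565, 429 and 439.8 TPM and H2-Eb1 at 399, 238 and 238 TPM. H2-Ea-ps, annotated as a pseudogene in the C57BL/6 reference because that strain carries a deletion in it, was at 1619, 1276 and 1441 TPM, and BALB/c mice have an intact gene. H2-DMa, a chain of the factor that exchanges peptides, and H2-Ob, a chain of its inhibitor, were at 89.9, 72.7 and 69.9 TPM and 72.98, 111 and 111 TPM, and the master activator Ciita at 33.05, 41.7 and 37.4 TPM. Rfx5, Rfxap and Rfxank, whose proteins bind beside the Y box, had means of 15.98, 15.2 and 5.03 TPM. Of 19 MHC-I genes 18 were expressed, with B2m at 1472, 1273 and 1413 TPM, H2-D1 at 266, 277 and 259.7 TPM and H2-K1 at 118, 106 and 88.95 TPM. The class I genes are close copies of each other, so their single values are uncertain. All H2 genes, of both classes, were counted on the C57BL/6 reference and not on BALB/c sequence, and H2-L was not matched.

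**Figure D5:**
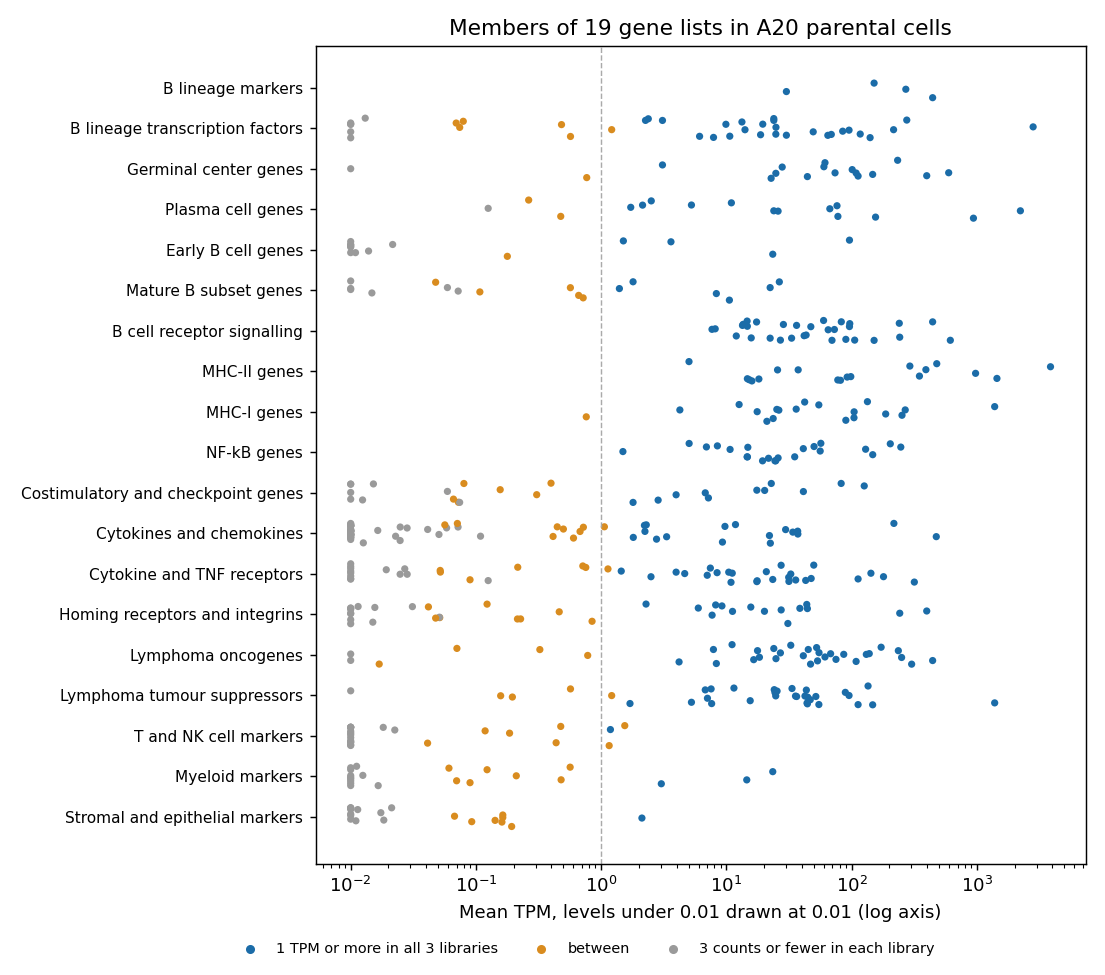
Mean TPM over the 3 parental libraries (x axis, log, levels under 0.01 drawn at 0.01) of each member of 19 gene lists (y axis). Blue members are at 1 TPM or more in all 3 libraries, grey members at 3 counts or fewer in each and orange members between, and the dashed line is at 1 TPM. The B cell receptor signalling, MHC-II and NF-kB lists lie wholly to the right of the line, and the T and NK cell, myeloid and stromal lists mostly to its left.

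Of the genes with which B cells meet T cells, 11 of 25 costimulatory and checkpoint genes were expressed. Btla, an inhibitory receptor, was highest and even at 127, 126 and 124 TPM. Cd274, which encodes PD-L1, was at 55.8, 101 and 90.1 TPM, lowest in replicate 1, whereas Pdcd1lg2, which encodes PD-L2, held at most 2 counts in a library. Icosl was at 25.05, 20.7 and 22.7 TPM, Cd40 at 14.6, 20.6 and 17.3 TPM and Icam1 at 17.5, 22.9 and 20.3 TPM. The ligands of CD28 were low, with Cd86 at 10.1, 5.38 and 6.04 TPM and Cd80 at 1.88, 1.95 and 1.56 TPM. Pdcd1, Vtcn1, Pvr and Cd70 had 0 counts.

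Few cytokine genes were expressed, 17 of 65, and 39 were at 3 counts or fewer in each library. Mif was highest at 716, 415 and 290.4 TPM, 2.47-fold higher in replicate 1 than in replicate 3. Ltb, the membrane lymphotoxin of lymphocytes, was at 149, 284 and 219 TPM and Lta at 26.3, 20.6 and 20.4 TPM. The inhibitory cytokine Il10 was at 54.7, 23.9 and 22.995 TPM, high in replicate 1, so that its mean was 33.9 TPM with and 23.5 TPM without that library. Tgfb1 was at 25.6, 22.9 and 17.7 TPM, Il16 at 29.6, 42.6 and 38.9 TPM, Vegfa at 23.5, 38.6 and 27.01 TPM and Tnf at 14.8, 11.1 and 9.44 TPM. Ebi3, a subunit of interleukins 27 and 35, was at 9.87, 9.38 and 8.64 TPM. Its partner genes differed, with Il12a at 2.56, 1.53 and 1.32 TPM and Il27 at 0 counts. Il6, Ifng, Il12b, Csf2, Ccl3, Ccl4 and Cxcl13 had 0 counts. The chemokines Ccl22 and Ccl17 held at most 3 and 1 counts, and Ccl5 and Cxcl10 were at 3.33 ± 1.55 and 2.21 ± 0.631 TPM (SD, n = 3).

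Of 46 cytokine and TNF receptors 26 were expressed. Il9r, the receptor of interleukin 9, was highest at 180.4, 426 and 343 TPM, and Il21r, whose ligand drives germinal center B cells, was at 147, 209 and 183 TPM. Il2rg, the chain shared by both, was much lower at 11.8, 10.5 and 11.1 TPM. Of the BAFF and APRIL receptors, Tnfrsf13b (TACI) was at 165, 144 and 118 TPM and Tnfrsf13c (the BAFF receptor) at 42.1, 26.9 and 28.9 TPM, with Tnfrsf17 at the floor. The ligand gene Tnfsf13b was at 0.587, 0.311 and 0.5998 TPM. The death receptor Fas was at 84.4, 117 and 136 TPM. For interleukin 10, Il10rb was at 26.1, 40.3 and 40.8 TPM but the ligand-binding chain Il10ra held at most 1 count in a library. Tnfrsf1a, Ltbr, Il1r1, Il7r and Kit had 0 counts, and Il2ra was under 0.1 TPM.

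For homing, 15 of 35 receptors and integrins were expressed. Cxcr4, which draws germinal center B cells to the dark zone, was at 249.9, 487 and 456 TPM, Cxcr5, which draws B cells to follicles, at 38.3, 19.3 and 24.5 TPM and Ccr7 at 9.82, 15.3 and 21.8 TPM. S1pr1, the egress receptor, was at 16.7, 40.8 and 35.4 TPM, lowest in replicate 1. The integrin chains Itgb1, Itgb2 and Itgal had means of 242, 43.8 and 38.6 TPM. Gpr183 was at 0.451, 0.0982 and 0.0948 TPM, and Ccr6, Cxcr3 and Ccr2 held at most 1 count in a library. Of 30 innate sensing genes 21 were expressed. Tlr1 was highest of the Toll-like receptors at 78.9, 77.7 and 79.4 TPM, followed by Tlr4 at 22.6 ± 1.52, Tlr9 at 19.8 ± 3.29, Tlr6 at 17.5 ± 0.905 and Tlr2 at 3.19 ± 0.271 TPM (SD, n = 3). Tlr7 held 2, 3 and 0 counts and Tlr5, Tlr8 and Tlr11 had 0, while Cd180 and Ly86, which form a Toll-like receptor complex of B cells, were at 45.6 ± 3.703 and 238 ± 14.1 TPM.

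Of the lymphoma oncogenes 29 of 35 were expressed. Myc was at 159, 129 and 127 TPM, the kinase Pim1 at 169, 295 and 243 TPM and Ezh2, a histone methyltransferase of germinal center B cells, at 145, 137 and 111 TPM. Among survival genes Mcl1 was at 282, 331 and 290.2 TPM and Bcl2l1, which encodes Bcl-xL, at 148, 349.6 and 254 TPM, while Bcl2 was at 2.002, 4.77 and 5.79 TPM. The ranges of these 3 genes did not cross the gap between Bcl2 and the others, and Bcl2 and Bcl2l1 were both lowest in replicate 1. The Bcl2a1 genes are near-identical copies and are not read singly. Of the proapoptotic genes Bax, Bcl2l11 and Pmaip1 had means of 142, 77.8 and 71.5 TPM. Of the D cyclins, Ccnd3 was at 32.4, 13.04 and 9.62 TPM, with a mean of 18.3 TPM that fell to 11.3 TPM without replicate 1, Ccnd1 was under 1 TPM and Ccnd2 held 1 count in sum, whereas their partner kinase Cdk4 was at 182, 179 and 155 TPM. Mycn and Tcl1 had 0 counts.

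Of the tumour suppressors 29 of 34 were expressed. Cdkn2a, which encodes p16 and p19Arf, was at 144, 152 and 109.9 TPM, Trp53 at 44.3, 65.02 and 54.8 TPM and Rb1 at 32.96, 51.6 and 47.5 TPM. Cdkn1a, the p53 target p21, was low at 1.298, 1.88 and 1.91 TPM. Expression alone does not tell whether these genes are intact. Klf2 and Sgk1 were below 1 TPM on average, at 0.569 ± 0.388 and 0.195 ± 0.105 TPM (SD, n = 3). In human lymphoma, classifiers sort tumours into an activated B-cell (ABC) and a germinal center (GCB) type. Of the mouse counterparts of such genes, 6 of 8 ABC and 4 of 7 GCB genes were expressed. They included Tnfrsf13b, Pim2 and Irf4 of the ABC genes and Mybl1 and S1pr2 of the GCB genes. Cyb5r2 of the ABC genes and Serpina9 and Mme of the GCB genes were among those not expressed. No class is given, since these counts rest on few genes and on levels in 1 line. All 20 proliferation genes were expressed, with Mki67 at 402, 280.1 and 219 TPM and Ccnb1 at 194, 99.7 and 96.3 TPM, both highest in replicate 1. Of sex chromosome genes, Kdm5d, Ddx3y, Uty and Eif2s3y on the Y had 0 counts and Xist was at 0.0348, 0.0483 and 0.0195 TPM.

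The clones served to ask how far this baseline is shared. Of the 11573 genes expressed in parental cells, 10569 (91.3%) were at 1 TPM or more in all 12 clone libraries, and of the 350 expressed list members 318 (90.9%). Of the 155 list members at 3 counts or fewer in each parental library, 124 (80.0%) were so in all 12 clone libraries as well, where 91.3% of all 25040 such genes were, and 0 of the members were at 1 TPM or more in all 12. The member with the most clone counts was Nt5e, with 32 in E6.2 replicate 1, and Bcl2a1a alone passed 1 TPM in a library, at 1.41 TPM in E7.1 replicate 1.

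Each clone was then compared with the parental line by the quasi-likelihood test of edgeR over 13904 genes, with p values adjusted by the Benjamini-Hochberg method, with levels in normalized CPM, counts scaled to library size, and all 4 comparisons share the 3 parental libraries. Of the 411 list members tested, 15 were called lower (3.65%) and 0 higher in E6.2, where 1.01% of all genes were called lower and 0.165% higher. At an unadjusted p under 0.05 there were 96 members, beside 13.1% of all genes, and DESeq2 called 39 members lower and 2 higher, beside 2.08% and 0.784% of all genes. Members called in E6.2 were lower in nearly all cases by both tools, and so were most of all genes called there. Over all genes 140 were lower and 23 higher by edgeR, and 289 lower and 109 higher by DESeq2. The lists were chosen with earlier results of these data known, so nothing about the members is read from these counts.

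In E7.1 7 were called lower (1.7%) and 1 higher, against 0.82% and 0.396% of all genes. This split did not hold in several alternatives. DESeq2 called 31 lower and 27 higher, against 3.93% and 4.39% of all genes. Without parental replicate 1 the members were 22 lower and 23 higher, against 3.3% and 3.51%, and without the 2 libraries richest in ribosomal RNA counts 25 and 29, against 4.19% and 4.64%. In E7.2 1 was called lower (0.243%), against 0.209% of all genes, and 0 higher. That call, of Foxp1, held in each of 11 alternatives, and some of these called other members in both directions. DESeq2 called 5 lower and 8 higher, against 1.05% and 0.777% of all genes. Without the 2 libraries 1 was lower and 3 were higher, against 0.186% and 0.1%. In E6.1 0 members were called, where 0.324% of all genes were. There 41 members had an unadjusted p under 0.05, beside 6.71% of all genes, and DESeq2 called 5, beside 1.11%. The median log2 fold change of the members was -0.14 for E6.2, -0.05 for E6.1, -0.04 for E7.1 and 0.03 for E7.2, beside 0.06, -0.00081, -0.02 and 0.0043 over all genes tested. These counts moved with single libraries. Without parental replicate 1 the members called in E6.2 were 6, all lower, against 0.52% of all genes, and in E7.1 they were 45. Without parental replicate 2 or 3, or without any 1 of the E7.1 libraries, 2 or 3 members were called in E7.1, 1 or 2 lower and 1 higher. Over all genes 30 to 66 were called in these fits.

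The targeted gene was among them. Foxp1 had 102, 166 and 147 CPM in the parental libraries and 41.7, 64.2 and 64.3 CPM in E7.1 (log2 fold change -1.29, SE 0.199, adjusted p = 0.00688), a call lost without parental replicate 2. It was also called in E7.2, at 37.1, 39.6 and 52.3 CPM (log2 fold change -1.69, SE 0.201, adjusted p = 0.00116). It was not called in E6.1, at 103, 99.5 and 109 CPM (log2 fold change -0.41, SE 0.196, adjusted p = 0.765), or in E6.2, at 109, 104 and 105 CPM (log2 fold change -0.39, SE 0.196, adjusted p = 0.417). Il2rg, the shared chain of the interleukin 2 receptor family, had 10.9, 9.29 and 11.1 CPM in the parental libraries and 1.02, 2.63 and 1.44 CPM in E6.2, lower in every library (log2 fold change -2.60, SE 0.271, adjusted p = 0.000119). In E7.1 it was at 48.3, 48.4 and 39.4 CPM, above every parental library (log2 fold change 2.12, SE 0.255, adjusted p = 0.000878). It also lay below every parental library in E6.1 (log2 fold change -1.12, SE 0.253, adjusted p = 0.106). The same held in E7.2 (log2 fold change -1.16, SE 0.253, adjusted p = 0.095), and neither was called. Of the B-lineage markers, Ms4a1 had 659.9, 570.3 and 743 CPM in the parental libraries and 273, 386 and 391 CPM in E6.2 (log2 fold change -0.91, SE 0.181, adjusted p = 0.0227), without overlap, but this call was lost in 4 of 11 alternatives.

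The other members called lower in E6.2 included regulators of late B-cell stages. Irf4 had 48.8, 37.4 and 46.2 CPM in the parental libraries and 16.4, 16.3 and 9.86 CPM in E6.2 (log2 fold change -1.64, SE 0.252, adjusted p = 0.00333) and Prdm1 had 12.9, 9.398 and 11.6 CPM in the parental libraries and 1.54, 2.15 and 1.98 CPM in E6.2 (log2 fold change -2.58, SE 0.463, adjusted p = 0.0108). In both genes the 3 clone libraries lay below all parental libraries. Among surface genes, Fcmr had a log2 fold change of -1.14 (adjusted p = 0.000278) and Cd200 one of -1.30 (adjusted p = 0.000119). Tnfrsf13c, Itgal, Itgb3, Myb, Ebi3 and Spn also fell, by between 0.85 and 2.26 on the log2 scale. Of 11 alternatives, 6 lost the call of Itgb3, 5 that of Tnfrsf13c, 3 each those of Myb and Ebi3, 2 each those of Itgal and Prdm1 and 1 that of Spn. The removal of parental replicate 1 was among them for each of these genes but Prdm1, whose call was lost without E6.2 replicate 1. The calls of Ly6c2, with 27, 12 and 24 counts in parental cells and at most 2 in the clone, and of Dcn, with 4, 6 and 4 counts against 0, rest on few counts and were lost in 5 and 10 of 11 alternatives. In E7.1 Zeb2, Cd69, Cdkn1b and Pmaip1 fell by between 0.79 and 1.6 on the log2 scale, and Pdgfrb and Ms4a6b held at most 2 and 5 counts in the clone. The call of Pdgfrb was lost in 3 of 11 alternatives and that of each of the other 5 genes in 5, the removal of parental replicate 3 and of E7.1 replicate 1 among them for all 6. Of the MHC-II, germinal center and immunoglobulin constant lists, 18, 16 and 9 genes were tested in 4 clones. Of these genes 0 were called, where 0.752% of all comparisons in the 4 clones were. Of their 72, 64 and 36 comparisons 5, 13 and 10 had an unadjusted p under 0.05, beside 13.3% of all comparisons. DESeq2 called 1, 6 and 1 of these, beside 3.53%, namely H2-Eb2 and Gcsam in E6.2, Bach2, Gna13, Basp1, Fas and Iglc2 in E7.1 and Fas in E7.2. Without parental replicate 1 edgeR called Bach2 and Fas in E7.1.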

How the data were processed

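RNA sequencing of the 3 A20 parental libraries and of 12 libraries of Foxp1 CRISPR clones was used. Per the file headers and the submitters' processing notes, the authors aligned the reads with HISAT to mm10 (GRCm38) with ERCC spike-ins and counted read pairs per gene with featureCounts 1.5.0, without regard to strand, leaving out pairs that mapped to several places or to several genes. The deposited values are raw counts, with a gene length beside each. The tables held 41480 features, of which 92 were spike-ins with a total count of 0 that were left out, and 40254 of the 41388 genes were matched to GENCODE M21 by identifier. TPM was computed here from the counts and the deposited lengths. Symbols of 7 list entries were not matched. Each clone was compared with parental cells in R 4.3.3 with edgeR 4.0.16 (filterByExpr, TMM, glmQLFit and glmQLFTest on all 15 libraries, Benjamini-Hochberg adjustment, calls at an adjusted p under 0.05). No 2 parental libraries agreed within sampling noise. The p-values measure the spread between passages within a line, estimated from all 15 libraries together. Promoters were read from RefSeq (GRCm38.p6). The genes named are members of the lists, the 25 highest genes, the 3 highest V segments of each immunoglobulin locus and the 10 least even genes, and Gapdh, Actb and the J segments were added after their values were seen. The members and lists were chosen with earlier results of these data known. Alternatives were other TPM thresholds, denominators and lengths, other count limits, DESeq2 1.42.0 and its size factors, no filter, a replicate block and the removal of each library. Some genes are not reported here.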

Additional observations from a re-analysis of the deposited data

Results flagged for a closer look

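The log2 fold changes of a gene in the 4 clones against parental cells were compared with each other in 1 test of 3 contrasts (quasi-likelihood test of edgeR, p adjusted by the Benjamini-Hochberg method over 13904 genes), in which 1148 genes (8.26%) differed between clones. Of the 22 list members called in at least 1 clone, 19 differed between clones as well. Among genes of the B-cell surface and cytokine receptors were Il2rg (adjusted p = 1.9e-07), which fell in E6.2 and rose in E7.1, Cd200 (adjusted p = 1.85e-05), Fcmr (adjusted p = 2.12e-05), Tnfrsf13c (adjusted p = 0.000495), Spn (adjusted p = 0.0117), Ly6c2 (adjusted p = 0.00779) and Ms4a6b (adjusted p = 0.0314). Integrins and secreted or stromal proteins were Itgal (adjusted p = 0.00183), Itgb3 (adjusted p = 0.014), Ebi3 (adjusted p = 0.00804), Pdgfrb (adjusted p = 0.00682) and Dcn (adjusted p = 0.01). Regulators of transcription were Irf4 (adjusted p = 0.00221), Foxp1 (adjusted p = 0.00225), Zeb2 (adjusted p = 0.0218), Prdm1 (adjusted p = 0.0227) and Myb (adjusted p = 0.024). The cell cycle inhibitor Cdkn1b (adjusted p = 0.0324) differed too. The lambda V segment Iglv3, which is in no list, differed between clones as well (adjusted p = 0.0118). Ms4a1, Cd69 and Pmaip1 did not pass this test, which does not show that the clones were alike in them. The spike-ins, with a total count of 0, gave no signal. With 3 libraries a line, no search for a single outlying value within a line was made.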

How the results depend on the processing

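The number of genes expressed in parental cells stayed between 10630 (at 2 TPM) and 12539 (at 0.5 TPM) under all alternatives, and the number at the floor between 19776 (0 counts) and 27615 (10 counts), both within 1.5-fold of the values given. Gene lengths mattered most for single levels, and the short genes that could fill the TPM sum did not, since leaving out genes under 200 bases, an alternative added after seeing the data, moved no level by over 1.5-fold. Counts of genes called in clones were less firm. With DESeq2's Wald test the genes called for the exon 6 clones E6.1, E6.2 and then E7.1 and E7.2 were 155, 398, 1157 and 254, and the list members 5, 41, 58 and 13. Without a filter on low counts 74 genes were called in E6.1 and 343 in E7.1, with 23 list members in E7.1. Without the 2 libraries richest in ribosomal RNA counts, parental replicate 1 and E6.2 replicate 1, also chosen after seeing the data, 65 genes and 7 members were called in E6.2, 1236 genes and 54 members in E7.1, and 4 members in E7.2. On leaving out 1 library at a time the genes called ranged, in the same order of clones, from 28 to 37, 83 to 214, 30 to 968 and 14 to 32, and the members from 0 to 0, 6 to 17, 2 to 45 and 1 to 3. The highest count in E7.1 was that without parental replicate 1. The causes of these shifts were not tested. Of 24 calls of a member in a clone, 7 held in all alternatives (among them Cd200, Fcmr, Irf4 and Il2rg in E6.2, Il2rg in E7.1 and Foxp1 in E7.2), 17 were lost in at least 1 and 0 reversed. With the replicate number as a block the genes called were 40, 135, 163 and 39 and the members 0, 15, 11 and 1. Deviations of same-numbered libraries from their lines' means correlated across genes with r between -0.12 and 0.21, and no clone had all 3 above 0.1 by which the numbers would pair, so this block is not taken as a pairing.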

Other observations

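Of the 350 list members expressed in parental cells, 32 fell below 1 TPM in at least 1 clone library. Many were low to begin with, such as Lck, Epcam, Sdc1, Rag2 and Cgas, whose lowest parental library lay between 1.04 and 1.31 TPM. Others were higher. Il2rg was at 10.5 TPM in its lowest parental library and at 0.944 TPM in its lowest clone library, Prdm1 at 4.63 and 0.615 TPM, Tnfrsf8, which encodes CD30, at 4.62 and 0.537 TPM, Tlr2 at 3.03 and 0.983 TPM, and Ccl5 at 2.33 and 0.212 TPM. Bcl2a1d, at 8.32 TPM in its lowest parental library, had 0 counts in at least 1 clone library, but it is 1 of several near-identical copies and its value is uncertain. Of the octamer letters ATGCAAAT, read on both strands, 1.74% of all 32851 promoters held a copy, 1.39% of those of genes expressed in parental cells and 1.90% of those of genes at the floor. Of the B-cell receptor list Blnk and Prkcb held it.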
